A study of Rattus norvegicus with 24 samples.

Results

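Toll-like receptors and the NF-kB branch downstream of them were described in the NAc of rats with a history of immune stimulation, heroin exposure or both. The members were taken by gene name, namely the receptors Tlr2, Tlr3, Tlr4 and Tlr7, the co-receptors Cd14 and Ly96, the adaptor Myd88, the NF-kB subunit gene Nfkb1, the inhibitor Nfkbia and the target Lcn2. Of these 10 genes, 9 were found among the 32545 genes with values, and Ly96 was not analysed here. FPKM values, which scale fragment numbers by gene length and sequencing depth, were read in all 24 libraries.

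Toll-like receptors recognise molecules of microbes and of damaged cells. TLR4 binds lipopolysaccharide (LPS) of Gram-negative bacteria together with CD14 and the LY96 protein, TLR2 binds bacterial lipoproteins, and TLR3 and TLR7 sense RNA inside endosomes. Most of these receptors signal through the adaptor MyD88 to the IkB kinases, which mark the inhibitor IkB-alpha (Nfkbia) for destruction and so release NF-kB dimers such as those made with p50, the product of Nfkb1. Nfkbia is itself switched on by NF-kB, and also by glucocorticoid hormones. In the brain, microglia carry most of the receptors, and Lcn2 encodes lipocalin 2, an iron-carrier-binding protein of the acute-phase response.

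Male Sprague Dawley rats, 8 weeks old on arrival, formed 6 groups of 4 libraries, which the labels call biological replicates. In the injection experiment, 5 injections of LPS (250 µg/kg) or saline were followed, after a gap, by 5 days of heroin rising from 1 to 5 mg/kg or saline, which gave the Saline-Saline group, the LPS-Saline group, the Saline-Heroin group and the LPS-Heroin group. All of these injections were intraperitoneal, and tissue was taken soon after the last of them and a brief locomotor test. The gap between LPS and heroin is stated differently in the labels and in the study's methods. In the self-administration experiment, rats with a jugular catheter, singly housed, took heroin (0.075 mg/kg per infusion, Heroin-SA) or saline (Saline-SA) in 10 daily sessions of 6 h and were killed directly after the last one. These rats were kept on a reversed light cycle, and those of the injection experiment on a normal one. No rat of the self-administration experiment received LPS. NAc core and shell were dissected together, so each value is an average over all cells of the tissue. In such bulk RNA, fewer cells of a type and less RNA per cell cannot be told apart.

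Gene reads numbered 12312878 in the shallowest library and 18850240 in the deepest. The mitochondrial share was 6.82% to 9.10% in the injection groups and 10.0% to 15.9% in the self-administration groups, with the highest shares in Saline-SA replicates 3 and 4. Markers of the tissue were present, as the 12 genes of the medium spiny neuron list were found with a summed level of 1273 to 3338 FPKM per library, and the 15 genes of the microglia list with 214 to 314 FPKM. The summed level of 7 genes of cortical glutamatergic neurons, a neighbouring tissue, ran from 52.7 to 448 FPKM. It was 95.6 to 276 FPKM in Saline-Saline and 349 to 448 FPKM in LPS-Heroin, which did not overlap, against 119 to 388 FPKM in LPS-Saline and 160 to 428 FPKM in Saline-Heroin. It was 56.1 to 247 FPKM in Saline-SA and 52.7 to 390 FPKM in Heroin-SA, and its part in the results was not tested. By group, the microglia list lay at 248 to 314 FPKM in Saline-Saline and 256 to 280 FPKM in LPS-Saline. It lay at 242 to 278 FPKM in Saline-Heroin, 236 to 275 FPKM in LPS-Heroin, 214 to 283 FPKM in Saline-SA and 221 to 270 FPKM in Heroin-SA, and all these ranges overlapped.

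The pathway was unevenly represented in the NAc. Nfkbia was the most abundant member, at a mean of 19.6 FPKM over the 24 libraries, and only 14.3% of all genes had a higher mean. Nfkb1 followed at 6.57 FPKM, Myd88 at 3.16 FPKM, Tlr2 at 1.44 FPKM, Tlr7 at 1.20 FPKM and Tlr3 at 0.785 FPKM. Lcn2 (0.620 FPKM), the LPS co-receptor gene Cd14 (0.444 FPKM) and the LPS receptor gene Tlr4 (0.384 FPKM) were the lowest. FPKM values are scaled by gene length, so levels can be set side by side between genes. The order of the lowest members was not the same in every group. In Saline-Saline the means were 0.237 FPKM for Lcn2, 0.437 FPKM for Tlr4 and 0.533 FPKM for Cd14. In reads, the range per library was 310 to 713 for Nfkbia, 291 to 510 for Nfkb1, 70 to 160 for Myd88, 33 to 89 for Tlr2, 49 to 112 for Tlr7 and 27 to 85 for Tlr3, but 3 to 31 for Tlr4, 3 to 20 for Cd14 and 1 to 31 for Lcn2. None of the 9 members was at 0 in any library.

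**Figure D1:**
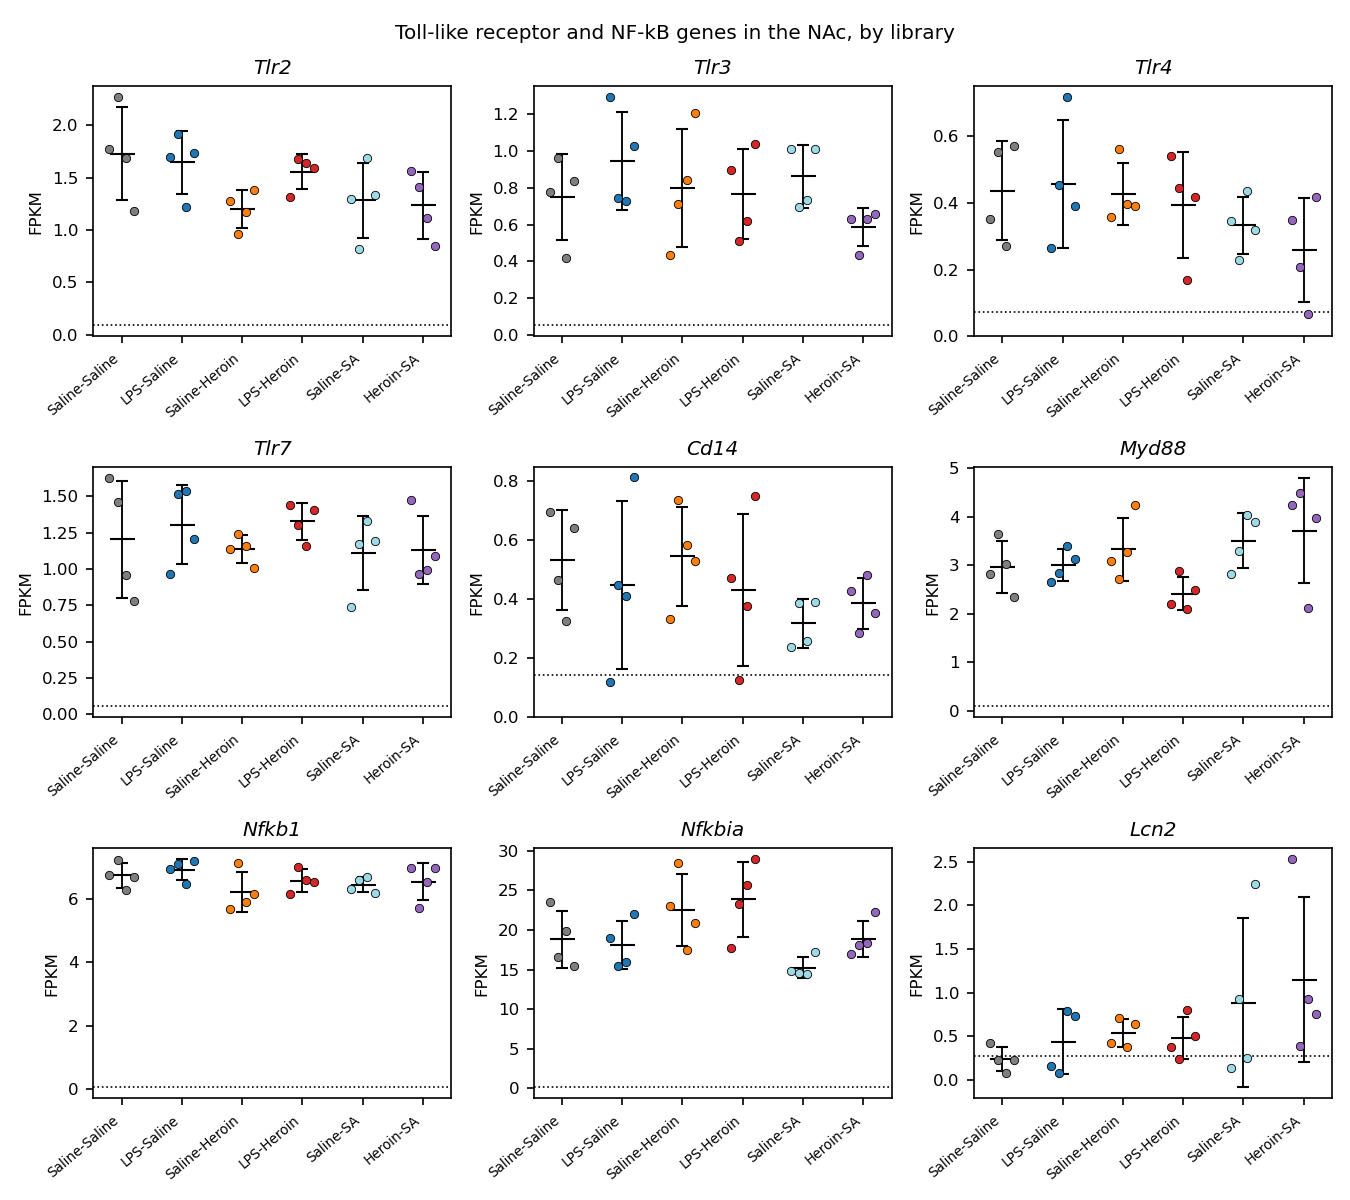
FPKM of the 9 members in every library (points), with the mean and SD of each group of 4 (horizontal tick and bars); the dotted line is the FPKM that 3 reads give in the shallowest library for that gene. Nfkbia lies highest, at 14.4 to 28.9 FPKM, while Lcn2, Cd14 and Tlr4 have libraries at or under the dotted line.

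A level that rests on 3 reads was taken as the limit of detection. It corresponded to 0.0477 to 0.0732 FPKM for Tlr4, 0.0939 to 0.144 FPKM for Cd14 and 0.179 to 0.275 FPKM for Lcn2, depending on the library. Tlr4 and Cd14 each reached this limit in 1 library, and Lcn2 was at or under it in 7. Fewer than 10 reads lay behind 2 of the 24 values of Tlr4, 10 of Cd14 and 17 of Lcn2. These limits cover counting error only.

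The spread between libraries of one group was set against the spread that the number of reads alone would give. For Nfkb1 the pooled coefficient of variation was 6.78%, where reads alone would give 5.12%, so its libraries differed little beyond counting. For Nfkbia it was 17.8% against 4.66%, a ratio of 3.82, which was the highest among the 9 members. Myd88 had 20.1% against 9.29%, Tlr2 21.4% against 13.4%, Tlr7 20.9% against 11.4% and Tlr3 29.7% against 13.8%. For the scarce members the reads themselves set a wide error, with 37.4% against 22.8% for Tlr4, 42.9% against 29.9% for Cd14 and 95% against 35.1% for Lcn2.

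**Figure D2:**
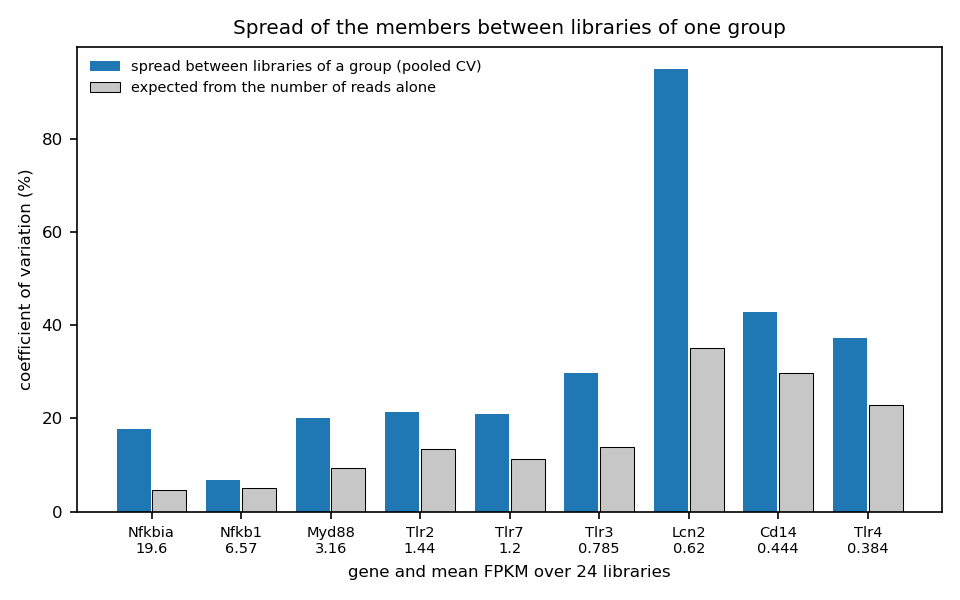
Coefficient of variation between the libraries of a group, pooled over the 6 groups (blue bars), beside the value expected from read counting alone (grey bars), for members in order of mean FPKM. The blue bar stands well above the grey one for Nfkbia (17.8% against 4.66%) and close to it for Nfkb1 (6.78% against 5.12%).

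Few members were called between groups. When the 6 group means of each member were put in order, 1 of 45 neighbouring pairs differed by more than the pooled SD of that member, which was Nfkbia in Saline-Heroin (22.5 FPKM) over Heroin-SA (18.9 FPKM), groups of different experiments. Neighbours in an order lie close by construction, and the ends of the order lay further apart. From highest to lowest group, the means ran from 23.9 to 15.2 FPKM for Nfkbia (pooled SD 3.48), from 3.71 to 2.42 FPKM for Myd88 (pooled SD 0.635) and from 1.73 to 1.20 FPKM for Tlr2 (pooled SD 0.309). Group differences were tested with limma-trend on log2(FPKM + 0.1) over all genes with a mean of at least 0.5 FPKM, and a gene was called when its unadjusted p was at most 0.05 and its change at least 1.3-fold. Between 6 and 7 members passed the filter in each comparison, since Tlr4 never did and Cd14 and Lcn2 did so only in some. For low genes the added 0.1 makes a log2 difference smaller than the change in FPKM.

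After LPS alone, 0 of 6 members tested were called in LPS-Saline against Saline-Saline, where 2.36% of all genes tested were called. In Saline-Heroin against Saline-Saline, 0 of 7 members were called (3.07% of all genes), and in LPS-Heroin against Saline-Saline 0 of 6 (5.42% of all genes). In LPS-Heroin against LPS-Saline, 1 of 6 members was called, Nfkbia, which was higher (2.29% of all genes). In LPS-Heroin against Saline-Heroin, 1 of 7 was called, Myd88, which was lower (2.20% of all genes). In Heroin-SA against Saline-SA, 0 of 7 members were called although 5.44% of all genes were. With counts of 0 or 1 in 6 or 7, the members cannot be set apart from these backgrounds.

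Fits over 16 libraries gave no further call, and errors were smaller than between 2 injection groups only for the averaged effects. For Nfkbia the standard error was 0.126 in the averaged effects, 0.253 in the interaction and 0.208 in the difference between heroin effects. Between 2 injection groups it was 0.156 to 0.177. The LPS effect averaged over heroin called 0 of 6 members (1.75% of all genes), the heroin effect averaged over LPS 0 of 6 (2.45%), and the LPS by heroin interaction 0 of 6 (2.31%). The effect of heroin self-administration less that of injected heroin called 0 of 7 members (4.38%). After Benjamini-Hochberg adjustment in limma, 0 genes in the whole table had an adjusted p under 0.05 in any of the 10 comparisons, while between 607 and 1725 genes had an unadjusted p under 0.05. The smallest adjusted p of a member was 0.351. The comparisons against Saline-Saline share those 4 libraries.

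**Figure D3:**
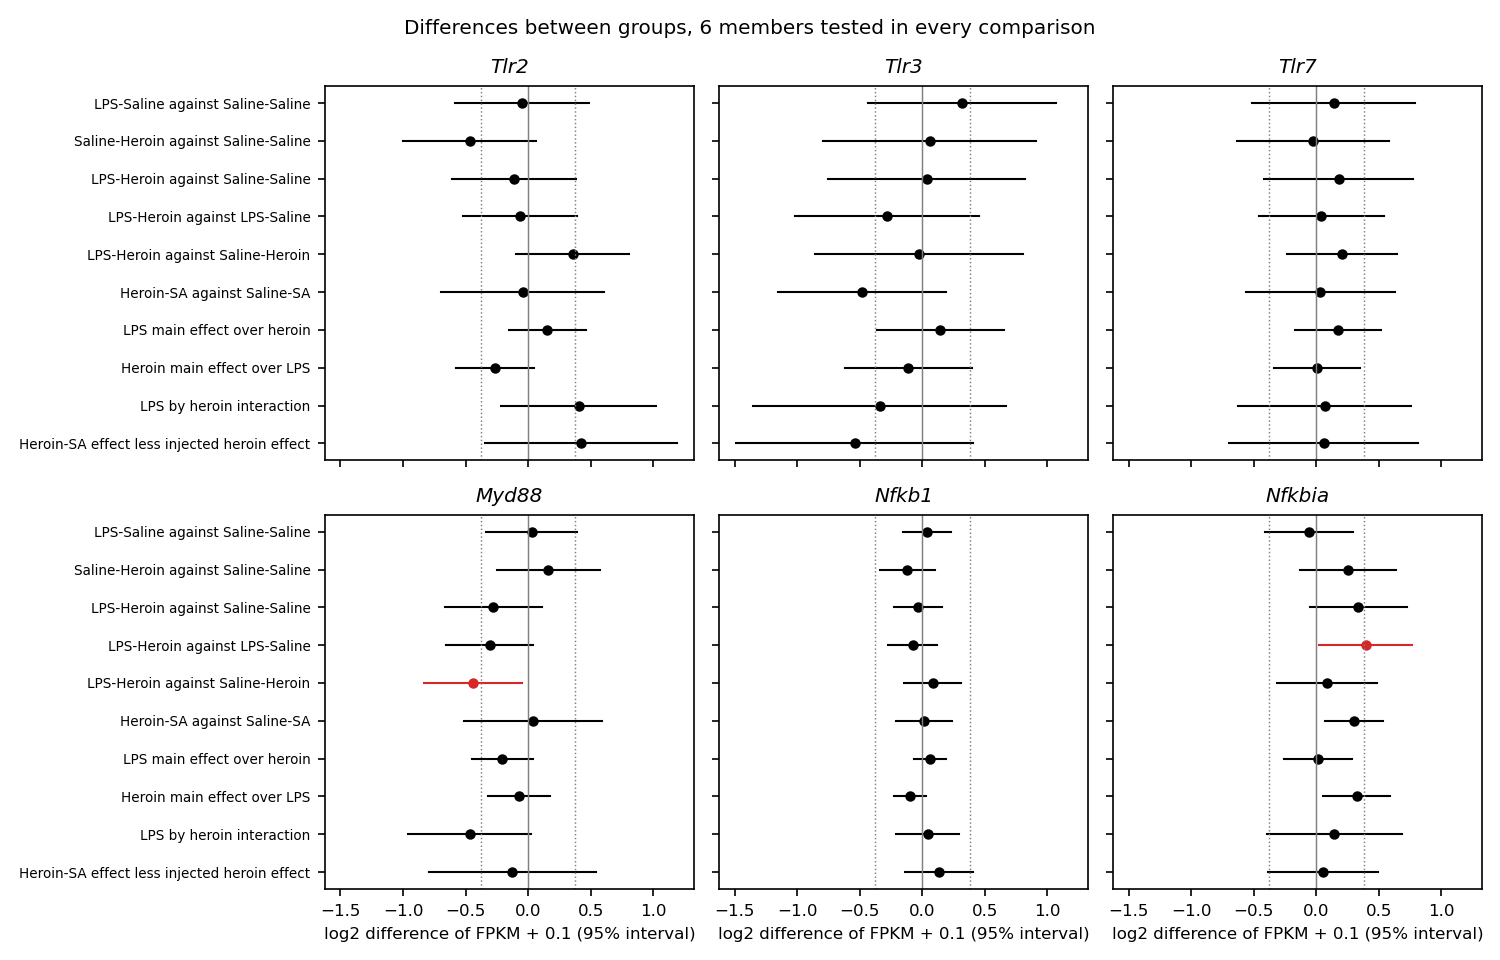
log2 differences of FPKM + 0.1 with 95% intervals in 10 comparisons for the 6 members tested in each; dotted lines mark a 1.3-fold change and red marks a call. Red points stand at 0.39 for Nfkbia in LPS-Heroin against LPS-Saline and at -0.44 for Myd88 in LPS-Heroin against Saline-Heroin, and the intervals of Nfkb1 are the narrowest.

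Nfkbia (ENSRNOG00000007390, rn6 chromosome 6, 76267228 to 76270457, minus strand), which encodes the inhibitor that holds NF-kB in the cytoplasm, had the smallest unadjusted p of any member, in Heroin-SA against Saline-SA. Within each experiment its group means were higher with heroin than with saline. The experiments differed as well, since the mean was 18.9 FPKM in Saline-Saline, 15.2 FPKM in Saline-SA and 18.9 FPKM in Heroin-SA. Saline-Saline libraries had 23.5, 16.6, 19.9 and 15.5 FPKM, and LPS-Saline libraries had 19.0, 15.4, 15.9 and 22.0 FPKM. Saline-Heroin libraries had 23.1, 28.4, 17.5 and 20.9 FPKM, and LPS-Heroin libraries had 17.7, 23.3, 25.7 and 28.9 FPKM. The 8 rats injected with heroin thus ran from 17.5 to 28.9 FPKM and the 8 injected with saline from 15.4 to 23.5 FPKM, so the sets overlapped, and 3 of the 8 heroin libraries lay above all saline libraries.

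In the self-administration experiment, Saline-SA libraries had 14.8, 14.5, 14.4 and 17.2 FPKM of Nfkbia and Heroin-SA libraries 16.9, 18.1, 18.3 and 22.2 FPKM. Of the Heroin-SA libraries, 3 of 4 lay above every Saline-SA library, and the fourth overlapped only Saline-SA replicate 4. The group means were 15.2 ± 1.30 FPKM (SD, n = 4) in Saline-SA and 18.9 ± 2.31 FPKM (SD, n = 4) in Heroin-SA, which was a log2 difference of 0.30 (95% interval 0.07 to 0.54, adjusted p = 0.351 in limma). This is 1.23-fold, under the 1.3-fold limit, so Nfkbia was not called there. The exact permutation test of the means gave p = 0.0571, where 0.0286 is the smallest p that 4 libraries against 4 allow.

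Among rats injected with LPS, the mean of Nfkbia was 18.1 ± 3.06 FPKM without heroin and 23.9 ± 4.74 FPKM with it (SD, n = 4 each). This was the difference that was called, at a log2 value of 0.39 (95% interval 0.02 to 0.77, adjusted p = 0.977 in limma), or 1.31-fold. The call was held without LPS-Heroin replicate 1 or LPS-Saline replicate 4 and lost without any other of the 8 libraries, with values from 0.30 without LPS-Heroin replicate 4 to 0.53 without LPS-Heroin replicate 1. The exact permutation test gave p = 0.0857, and the groups overlapped.

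Without LPS, the log2 difference of Nfkbia between Saline-Heroin and Saline-Saline was 0.25 (95% interval -0.13 to 0.63), and it was not called. The interaction, which asks whether the heroin difference depended on past LPS, was 0.14 (95% interval -0.39 to 0.68, adjusted p = 0.992 in limma). A heroin effect in LPS-treated rats only was therefore not shown. Averaged over LPS, the heroin difference was 0.32 (95% interval 0.05 to 0.59, adjusted p = 0.582 in limma), a 1.25-fold change that stayed under the fold limit. The LPS difference averaged over heroin was 0.02 (95% interval -0.25 to 0.28).

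The heroin differences of Nfkbia in the separate experiments, 0.25 for injection without LPS and 0.30 for self-administration, differed by 0.05 (95% interval -0.39 to 0.50, adjusted p = 0.977 in limma). The experiments differed in route, dose, housing, light cycle and time of death, which cannot be told apart here. Without Saline-SA replicates 3 and 4, a setting chosen after the data had been seen, the self-administration difference was 0.36, and it was 0.22 without Heroin-SA replicate 4. It was called in none of these fits and in none of the other single omissions.

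Glucocorticoids act on Nfkbia, so the summed level of the 10 other genes of the glucocorticoid response list is given beside it. It was 173 to 182 FPKM in Saline-SA and 180 to 250 FPKM in Heroin-SA, which overlapped. In the injection experiment it was 179 to 292 FPKM without LPS or heroin, 210 to 245 FPKM after LPS alone, 210 to 289 FPKM after heroin alone and 219 to 245 FPKM after both, which all overlapped. The part of these hormones in the Nfkbia values was not tested.

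The genes whose deviations from the group means were most like those of Nfkbia over the 24 libraries were Slc2a1 (Pearson r 0.83, Spearman rho 0.77), Sord (0.82 and 0.76) and Snx19 (0.80 and 0.78), picked as the 3 highest of 12132 genes. Slc2a1, the glucose transporter of the blood-brain barrier, was measured at 51.8 ± 6.11 FPKM in Saline-Saline and 48.1 ± 3.98 FPKM in LPS-Saline (SD, n = 4 each). Its level was 53.7 ± 8.05 FPKM in Saline-Heroin, 54.9 ± 6.89 FPKM in LPS-Heroin, 51.2 ± 4.06 FPKM in Saline-SA and 55.9 ± 3.20 FPKM in Heroin-SA (SD, n = 4 each). Points share depth and tissue composition, and the genes were chosen for their r, so this is a description. The endothelium list, which includes Slc2a1 and so is no separate measure of it, was found with 10 genes of 12 and summed to 113 to 152 FPKM in the injection groups and 138 to 174 FPKM in the self-administration groups, with overlap of Heroin-SA and Saline-SA.

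The promoters of the members are shown because NF-kB sites there are what the pathway acts through. RefSeq promoters of the GRCr8 build, 250 bases before to 50 after the annotated start site, were matched for 9 members by symbol and searched on both strands for the kB consensus of 10 letters, free at both middle positions. Of these 9, Tlr2, Nfkb1, Nfkbia and Lcn2 held a match, against 7.51% of all 33469 promoters. The members were picked as genes of this pathway, with known NF-kB targets among them, so this share is no test of enrichment. Capitals mark the match, and overlapping matches are joined. Each sequence is written 5′ to 3′ along the gene's strand, which is the minus strand for all 4 genes.
Nfkbia, chr6:78597073-78597148: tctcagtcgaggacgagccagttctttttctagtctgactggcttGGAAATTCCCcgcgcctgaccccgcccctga
Nfkb1, chr2:226805440-226805469: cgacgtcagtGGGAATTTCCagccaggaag
Tlr2, far match, chr2:171504709-171504807: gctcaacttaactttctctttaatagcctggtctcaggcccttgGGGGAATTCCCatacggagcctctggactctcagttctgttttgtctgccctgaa
Tlr2, near match, chr2:171504558-171504644: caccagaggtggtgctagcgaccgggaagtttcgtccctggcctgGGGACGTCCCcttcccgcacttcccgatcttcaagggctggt
Lcn2, chr3:36081968-36082030: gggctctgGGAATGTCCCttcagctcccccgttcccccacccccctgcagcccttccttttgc
The match in Nfkbia began 31 bases before the start site, that of Nfkb1 lay at position 4 after it, those of Tlr2 at 206 and 42 bases before it, and that of Lcn2 at 242 bases before it. Tlr3, Tlr4, Tlr7, Cd14 and Myd88 held none in this window, which says only that these letters are not there. A match describes the sequence and is no measurement of binding. Among the members with a match, Nfkbia was called in 1 comparison and Nfkb1 and Tlr2 in none. Lcn2 passed the filter in only some comparisons and was called in none of those. Without the filter it was called in Saline-Heroin against Saline-Saline. Myd88, which held no match, was also called in 1 comparison.

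Nfkb1 (ENSRNOG00000023258, rn6 chromosome 2, 240773456 to 240866689, minus strand), the gene of the p105 precursor and the p50 subunit, was the most even member. Group means ran from 6.21 ± 0.640 FPKM in Saline-Heroin to 6.92 ± 0.324 FPKM in LPS-Saline (SD, n = 4 each), a ratio of 1.11. Every library lay between 5.69 and 7.22 FPKM. In the 6 comparisons of 2 groups, the log2 difference was at most 0.12 in size, and the widest interval was 0.45 from end to end, or 1.17-fold to either side of the value. The heroin difference averaged over LPS was -0.10 (95% interval -0.22 to 0.03), and the LPS difference averaged over heroin was 0.06 (95% interval -0.06 to 0.19). Both intervals lie within the 1.3-fold limit, so for Nfkb1 a change of that size was outside the 95% intervals of both effects.

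Myd88 (ENSRNOG00000013634, rn6 chromosome 8, 128022473 to 128026841, minus strand), the adaptor that most Toll-like receptors share, was lowest in rats that had received both LPS and heroin. LPS-Heroin libraries had 2.21, 2.88, 2.11 and 2.48 FPKM, and Saline-Heroin libraries had 3.09, 2.72, 3.28 and 4.25 FPKM. Only LPS-Heroin replicate 2 reached into the range of Saline-Heroin, and Saline-Heroin replicate 4 was far above the rest. The means of 2.42 ± 0.344 FPKM (SD, n = 4) and 3.33 ± 0.652 FPKM (SD, n = 4) gave a log2 difference of -0.44 (95% interval -0.83 to -0.05, adjusted p = 1.00 in limma). The exact permutation test gave p = 0.0571.

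This call of Myd88 was held in 3 of the 8 fits without one library, and it was lost without LPS-Heroin replicate 1, 3 or 4 or Saline-Heroin replicate 3 or 4. The value moved to -0.32 without Saline-Heroin replicate 4. LPS-Saline libraries had 2.65, 2.84, 3.40 and 3.13 FPKM of Myd88, and Saline-Saline libraries 2.83, 3.65, 3.02 and 2.36 FPKM, so these groups overlapped fully. In LPS-Heroin against LPS-Saline the log2 difference was -0.31 (95% interval -0.66 to 0.04), and against Saline-Saline it was -0.28 (95% interval -0.66 to 0.11). The interaction was -0.47 (95% interval -0.96 to 0.02, adjusted p = 0.992 in limma), and so did not pass the limit.

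In the self-administration experiment Myd88 was at 2.82, 3.30, 4.03 and 3.89 FPKM in Saline-SA and at 4.25, 4.50, 2.12 and 3.98 FPKM in Heroin-SA. Heroin-SA replicate 3 stood below all other libraries of both groups. The log2 difference was 0.04 (95% interval -0.51 to 0.59), and it was 0.28 without Heroin-SA replicate 3. Over 24 libraries, the deviations of Myd88 were most like those of Tarsl2 (Pearson r 0.78, Spearman rho 0.76), Wwox (0.78 and 0.69) and Rpp38 (0.77 and 0.64).

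The receptor genes showed no call in any comparison. Tlr2 (ENSRNOG00000009822, rn6 chromosome 2, 182840727 to 182846061, minus strand), the lipoprotein receptor, was highest in Saline-Saline at 1.73 ± 0.444 FPKM (SD, n = 4) and lowest in Saline-Heroin at 1.20 ± 0.179 FPKM (SD, n = 4). Saline-Saline libraries had 1.77, 2.27, 1.69 and 1.18 FPKM and Saline-Heroin libraries 1.28, 0.965, 1.17 and 1.38 FPKM, with Saline-Saline replicate 4 inside the Saline-Heroin range. The log2 difference was -0.47 (95% interval -1.0 to 0.07, adjusted p = 0.751 in limma), and the exact permutation test gave p = 0.0857. Tlr2 would be called without Saline-Saline replicate 4, at -0.63, and with limma-voom on the reads, at -0.53.

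With LPS before heroin, Tlr2 was at 1.56 ± 0.165 FPKM (SD, n = 4), with 1.32, 1.68, 1.64 and 1.59 FPKM in LPS-Heroin. Its log2 difference from Saline-Heroin was 0.36 (95% interval -0.10 to 0.81), with an exact permutation p of 0.0571. The interaction of 0.41 (95% interval -0.21 to 1.02, adjusted p = 0.992 in limma) did not pass the limit. In self-administration, Tlr2 was at 0.823 to 1.69 FPKM in Saline-SA and 0.847 to 1.57 FPKM in Heroin-SA, with a log2 difference of -0.04 (95% interval -0.70 to 0.61).

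Tlr3 (ENSRNOG00000021726, rn6 chromosome 16, 50016857 to 50031214, plus strand) is the receptor for double-stranded RNA. In the 6 comparisons of 2 groups, it was the only member with groups that did not overlap. Saline-SA libraries had 1.01, 0.697, 0.734 and 1.01 FPKM (45 to 78 reads) and Heroin-SA libraries 0.633, 0.432, 0.633 and 0.655 FPKM (28 to 44 reads). The means were 0.862 ± 0.170 FPKM (SD, n = 4) and 0.588 ± 0.104 FPKM (SD, n = 4). The exact permutation test gave p = 0.0286, the smallest it can give, in 1 of 54 tests of 9 members in 6 comparisons. In limma the log2 difference was -0.48 (95% interval -1.15 to 0.19, adjusted p = 0.539), and it was not called. Heroin-SA replicate 2 was far below its group, and without it the value was -0.36.

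In the injection experiment, Tlr3 overlapped between all groups. Its range was 0.419 to 0.960 FPKM in Saline-Saline and 0.726 to 1.29 FPKM in LPS-Saline, and it was 0.434 to 1.20 FPKM in Saline-Heroin and 0.511 to 1.04 FPKM in LPS-Heroin. Injected heroin without LPS gave a log2 difference of 0.06 (95% interval -0.80 to 0.91). The difference between this value and that of self-administration was -0.54 (95% interval -1.49 to 0.41, adjusted p = 0.845 in limma), so the heroin effects on Tlr3 were not shown to differ between the experiments.

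Tlr7 (ENSRNOG00000004249, rn6 chromosome X, 28486869 to 28512957, plus strand), the receptor for single-stranded RNA, had group means from 1.11 ± 0.254 FPKM (SD, n = 4) in Saline-SA to 1.33 ± 0.125 FPKM (SD, n = 4) in LPS-Heroin. Every comparison of 2 groups gave a log2 difference of at most 0.21 in size. Saline-Saline was the most uneven group, with 1.62, 1.46, 0.956 and 0.780 FPKM. Tlr7 followed the microglia list most closely of the members, with a Pearson r of 0.57 over the deviations of 24 libraries, and Myd88 came next with 0.52. It was 0.42 for Lcn2, 0.42 for Tlr4, 0.39 for Nfkb1, 0.37 for Tlr2, 0.35 for Tlr3, 0.17 for Cd14 and -0.08 for Nfkbia. Of the 15 genes of that list, 3 were called in LPS-Heroin against LPS-Saline, where 2.29% of all genes were, and 1 was called without LPS-Heroin replicate 1. The purine receptor genes P2ry12 and P2ry13 and the integrin gene Itgam were lower, by 0.60, 0.62 and 0.54 on the log2 scale (adjusted p = 0.977 each in limma), and 0 of the 15 were called higher. In LPS-Heroin against Saline-Saline, 2 were called (5.42% of all genes), and 1 without LPS-Heroin replicate 1. The lysosomal gene Cd68 was lower by 0.77 and the microglial surface gene Tmem119 higher by 0.45 (adjusted p = 0.406 and 0.209 in limma). In Saline-Heroin against Saline-Saline, 1 was called (3.07% of all genes), and 0 without Saline-Heroin replicate 1. It was the fractalkine receptor gene Cx3cr1, lower by 0.55 (adjusted p = 0.750 in limma). No gene of the list was called in LPS-Saline against Saline-Saline, LPS-Heroin against Saline-Heroin, Heroin-SA against Saline-SA or the LPS effect over heroin. The heroin effect over LPS called P2ry13, at -0.38 (adjusted p = 0.547 in limma; 2.45% of all genes). Cx3cr1 was called in the interaction, at 0.57 (adjusted p = 0.992; 2.31%), and in the difference between the heroin effects, at 0.65 (adjusted p = 0.721; 4.38%). Each of these 3 effects had fits without one library that called 0 genes of the list. The part of microglia in the member values was not tested. These values share depth and dissection and are given as a description.

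Genes most like the other members by the same measure were Map7d1, Mcat and Pik3r2 for Tlr2 (Pearson r 0.75, 0.74 and 0.74), Tanc1, Tmeff2 and Tram1 for Tlr3 (0.77, 0.75 and 0.75), Syce2, Fchsd2 and Ift81 for Tlr7 (0.70, 0.69 and 0.66) and Slc29a1, Oser1 and Dnajb9 for Nfkb1 (0.74, 0.74 and 0.70). For Lcn2 they were Acsbg1, Hsd17b11 and Mvp (0.80, 0.76 and 0.74). None of these genes belongs to the pathway list.

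The LPS receptor gene had the lowest mean of the members over the 24 libraries but lay above the limit of detection in all libraries but 1. Tlr4 (ENSRNOG00000010522, rn6 chromosome 5, 82587420 to 82601052, plus strand) had 0.437 ± 0.149 FPKM in Saline-Saline and 0.457 ± 0.191 FPKM in LPS-Saline (SD, n = 4 each). Its mean was 0.426 ± 0.0921 FPKM in Saline-Heroin, 0.394 ± 0.158 in LPS-Heroin, 0.332 ± 0.0853 in Saline-SA and 0.260 ± 0.156 in Heroin-SA (SD, n = 4 each). The lowest library was Heroin-SA replicate 3, at 0.0668 FPKM or 3 reads, and the highest LPS-Saline replicate 3, at 0.718 FPKM or 31 reads. All pairs of groups compared overlapped, and the exact permutation p for LPS-Saline against Saline-Saline was 0.886. Fitted without the filter, that log2 difference was 0.04 (95% interval -0.76 to 0.84), so changes of Tlr4 after LPS within this interval were not excluded.

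Cd14 (ENSRNOG00000017819, rn6 chromosome 18, 29560365 to 29562153, minus strand), which hands LPS to TLR4, was at 0.533 ± 0.168 FPKM in Saline-Saline and 0.448 ± 0.284 FPKM in LPS-Saline (SD, n = 4 each). It was at 0.545 ± 0.167 FPKM in Saline-Heroin, 0.431 ± 0.257 in LPS-Heroin, 0.318 ± 0.0818 in Saline-SA and 0.387 ± 0.0863 in Heroin-SA (SD, n = 4 each). LPS-Saline alone spanned 0.120 to 0.813 FPKM, or 3 to 19 reads. The groups of every comparison overlapped, and the smallest exact permutation p over 6 comparisons was 0.286, in Heroin-SA against Saline-SA. Without the filter, the log2 difference of LPS-Saline from Saline-Saline was -0.34 (95% interval -1.37 to 0.70).

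Lcn2 (ENSRNOG00000013973, rn6 chromosome 3, 11414186 to 11417546, minus strand), an acute-phase target of NF-kB, rested on the fewest reads. Saline-Saline libraries had 6, 3, 1 and 3 reads, LPS-Saline libraries 2, 1, 9 and 9, Saline-Heroin libraries 6, 10, 5 and 7, and LPS-Heroin libraries 5, 4, 10 and 7. The lowest group was Saline-Saline, at 0.237 ± 0.140 FPKM (SD, n = 4), and no injection library was above 0.799 FPKM. Summed over the groups, 28 reads in Saline-Heroin against 13 in Saline-Saline gave a ratio of 2.17 (95% exact interval 1.09 to 4.56, counting error only). The exact permutation test of the means gave p = 0.0571. The filter kept Lcn2 out of this comparison, and without the filter it was called at a log2 difference of 0.98 (95% interval 0.10 to 1.85, adjusted p = 0.830 in limma). For LPS-Saline against Saline-Saline, 21 reads against 13 gave a ratio of 1.72 (95% exact interval 0.820 to 3.73).

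In the self-administration experiment, Lcn2 spread widely within both groups. Saline-SA libraries had 0.130, 0.923, 0.246 and 2.24 FPKM (2, 15, 3 and 30 reads) and Heroin-SA libraries 2.53, 0.388, 0.921 and 0.748 FPKM (31, 5, 11 and 10 reads). The highest values were in Heroin-SA replicate 1 and Saline-SA replicate 4, so neither group led. The log2 difference was 0.64 (95% interval -1.14 to 2.41, adjusted p = 0.767 in limma). Markers of neutrophils and monocytes, blood cells that also make Lcn2, summed to 3.55, 6.82, 1.78 and 16.4 FPKM in the Saline-SA libraries and to 5.29, 3.06, 1.74 and 5.56 FPKM in the Heroin-SA libraries, over 11 genes found of 12. Of these 11 genes, 2 had a mean of at least 0.5 FPKM over the 24 libraries, S100a9 (1.12 FPKM) and S100a8 (0.866 FPKM). Elane and Ccr2 were at 0 in all 24 libraries. Saline-SA replicate 4 also had the highest red blood cell level, with 4649 FPKM, and the part of blood in Lcn2 was not tested.

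The other genes of the pathway were taken from a list of 81 written by role, of which 77 were found and 51 had a mean of at least 0.5 FPKM. Most signalling components passed this filter and most targets did not. Some genes that passed still rested on few reads, with 4 to 38 per library for Tirap. The filter was passed by 19 of 20 adaptors and kinases, 7 of 7 NF-kB and IRF factors and 12 of 14 inhibitors, but by 7 of 16 other receptors and accessory proteins and 6 of 20 targets. Tlr11, Cxcl1 and Cxcl2, named after their values had been seen, had at most 3 reads in every library.

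Few of these genes were called, and the shares of all genes called in each comparison are those given above. Out of 51 or 52 tested, 2 were called after LPS alone, 2 after heroin alone and 1 after both, each against Saline-Saline. In LPS-Heroin, 2 were called against LPS-Saline and 1 against Saline-Heroin. Heroin-SA against Saline-SA gave 0, but 3 without Saline-SA replicate 1. The LPS effect over heroin gave 1, the heroin effect over LPS 0, the interaction 3 and the difference between the heroin effects 2. The median log2 difference of the list lay between -0.06 and 0.02 in the 10 comparisons, and that of all genes between -0.00 and 0.01. No adjusted p of the called genes was under 0.05 in limma, and the smallest was 0.418.

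**Figure D4:**
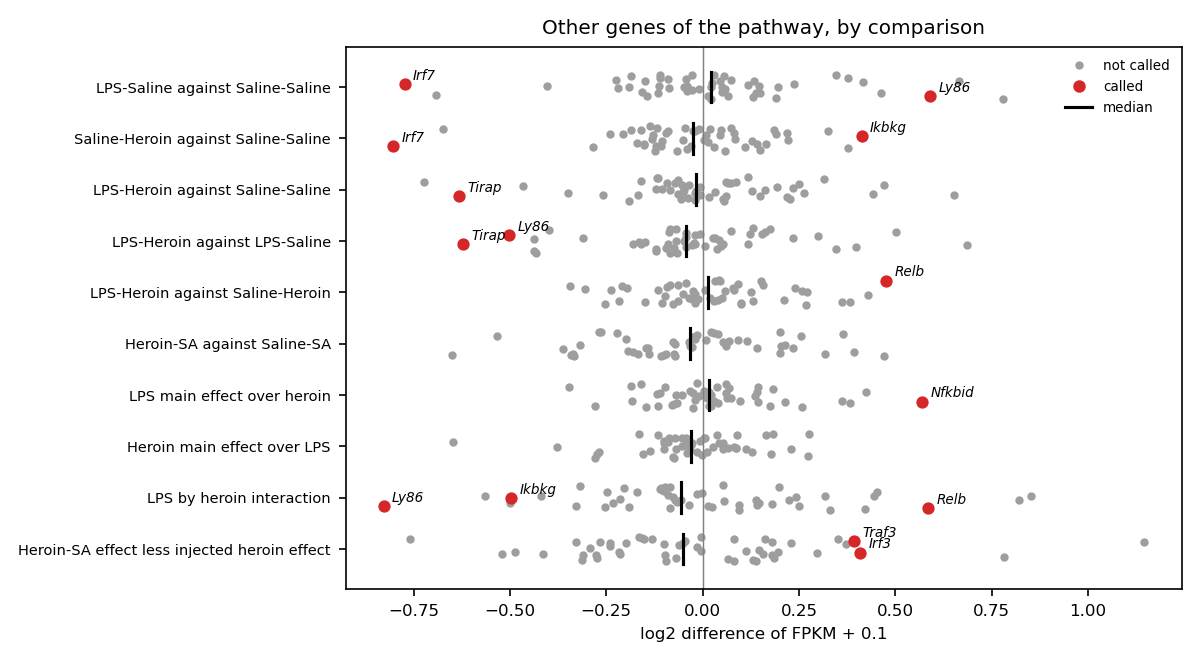
log2 differences of FPKM + 0.1 for the other genes of the pathway in each of 10 comparisons (points), with the median as a black bar and called genes in red with their names. Between 0 and 3 genes were called in a comparison, and the medians lie between -0.06 and 0.02.

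After LPS alone, Irf7, an interferon-regulating factor that TLR7 signals through, fell. It had 1.95, 2.24, 2.07 and 2.18 FPKM in Saline-Saline and 1.44, 1.12, 1.06 and 1.18 FPKM in LPS-Saline, without overlap (exact permutation p = 0.0286). Irf7 was called in each of 8 fits without one library, and over all libraries its log2 difference was -0.77 (standard error 0.17, adjusted p = 0.657 in limma). Irf7 was also called in Saline-Heroin against Saline-Saline, at -0.80 (standard error 0.34), but there in 2 of 8 such fits, with -0.56 without Saline-Heroin replicate 1, and the groups overlapped (exact permutation p = 0.0571). Both comparisons share the Saline-Saline libraries, which had an SD of only 0.127 FPKM (n = 4), whereas LPS-Heroin ran from 0.458 to 2.93 FPKM and Heroin-SA from 0.809 to 3.07 FPKM. The span of Irf7 overlaps Phrf1 on the opposite strand, and since the use of strand in counting is not stated its values are uncertain.

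Ly86, which encodes the MD-1 partner of the Toll-like protein RP105, rose in LPS-Saline. Its mean was 2.25 ± 0.481 FPKM after LPS and 1.45 ± 0.258 FPKM in Saline-Saline (SD, n = 4 each), a log2 difference of 0.59 (standard error 0.21, adjusted p = 0.729 in limma). It fell in LPS-Heroin against LPS-Saline, at 1.55 ± 0.266 FPKM (SD, n = 4) and a log2 difference of -0.50 (standard error 0.21). Its interaction was -0.83 (95% interval -1.51 to -0.14, adjusted p = 0.992 in limma) and was called in all 16 fits without one library. The read numbers behind Ly86 were 18 to 58 per library. The call after LPS was held in 5 of 8 fits without one library, with 0.47 without LPS-Saline replicate 3. The call against LPS-Saline was held in 2 of 8, with -0.39 without the same library, and under 3 of 9 alternative settings. The groups overlapped in both comparisons (exact permutation p = 0.0571 in each).

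Adaptor and kinase genes called were Ikbkg and Tirap. Ikbkg, the regulatory subunit of the IkB kinase, was at 3.53 ± 0.188 FPKM (SD, n = 4) in Saline-Saline and 4.75 ± 0.583 FPKM (SD, n = 4) in Saline-Heroin, without overlap (exact permutation p = 0.0286). Its log2 difference of 0.41 (standard error 0.12, adjusted p = 0.750 in limma) was called in 6 of 8 fits without one library, with 0.36 without Saline-Heroin replicate 4. The mean of Ikbkg was also above Saline-Saline in LPS-Saline (4.59 ± 0.963 FPKM) and LPS-Heroin (4.27 ± 0.508 FPKM; SD, n = 4 each). Saline-Saline had the smallest SD of all groups. Tirap, which brings MyD88 to TLR2 and TLR4, was lowest in LPS-Heroin, at 1.38 ± 0.237 FPKM (SD, n = 4) against 2.26 ± 0.694 in Saline-Saline and 2.27 ± 0.954 in LPS-Saline. The Saline-Heroin mean was 1.66 ± 1.16 FPKM (SD, n = 4), with libraries at 0.433 and 0.915 FPKM, below every LPS-Heroin library. Tirap fell in LPS-Heroin against Saline-Saline and LPS-Saline, by 0.63 and 0.62 on the log2 scale (adjusted p = 0.418 and 0.977 in limma). The reads per library were 15 to 32 in Saline-Saline, 19 to 36 in LPS-Saline and 15 to 18 in LPS-Heroin. The exact permutation p was 0.114 against Saline-Saline, with overlap, and 0.0286 against LPS-Saline, without overlap. These calls were held in 2 and 1 of 8 fits without one library, and the second value was -0.37 without LPS-Saline replicate 3. Under the 9 alternative settings, the first call was held in 7 and the second in 3.

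Among factors and inhibitors, Relb and Nfkbid were also called. Relb, a subunit of the alternative NF-kB pathway, rose in LPS-Heroin (2.23 ± 0.366 FPKM, SD, n = 4) against Saline-Heroin (1.57 ± 0.246 FPKM, SD, n = 4), with a log2 difference of 0.48 (standard error 0.19, adjusted p = 1.00 in limma). Relb in LPS-Heroin was not called against Saline-Saline (1.87 ± 0.264 FPKM) or LPS-Saline (1.74 ± 0.351 FPKM; SD, n = 4 each), and the Saline-Heroin mean lay below both. The call of Relb was held in 3 of 8 fits without one library, with 0.41 without Saline-Heroin replicate 4. LPS-Heroin and Saline-Heroin overlapped (exact permutation p = 0.0857). Nfkbid, a nuclear IkB protein, was higher with LPS averaged over heroin, at 0.57 (standard error 0.26, adjusted p = 0.740 in limma), on 10 to 56 reads per injection library. It was called in 5 of 16 fits without one library, with 0.38 without Saline-Saline replicate 1, and under 4 of 9 alternative settings.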

How the data were processed

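RNA-seq of polyadenylated RNA was held for 24 libraries in 6 groups of 4. Per the labels and methods, the provider made directional libraries, trimmed reads with fastp, aligned them with HISAT2 to rn6 and counted them with featureCounts. Versions, annotation release and use of strand are not given in the sources used here. The authors deposited FPKM values, and tested with DESeq2. Whole reads were recovered for 100% of values (tolerance 0.05) and used for read numbers, detection limits and one alternative.

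Differences were fitted with limma 3.58.1 in R 4.3.3 (limma-trend, pseudocount 0.1, mean of at least 0.5 FPKM, Benjamini-Hochberg over all genes tested), with no covariate; pairs of groups used 8 libraries, other effects 16. FPKM values are not counts, so limma stands in for the count test of the authors. Calls used an unadjusted p of at most 0.05 and 1.3-fold. Member means were compared by exact permutation, two-sided, over 70 assignments. The fits were tested on simulated data.

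Named were the 10 members, the pathway genes called in a comparison (at most 3 each) and the 3 genes most like each member with a mean of at least 0.5 FPKM, among genes with a mean of at least 1 FPKM. The members and lists were chosen with earlier results of these data known. Symbols with several records used the one with the highest mean. Alternatives were pseudocounts of 1 and 0.01, no filter or a mean of at least 1 FPKM, quantile normalization, equal medians, all 24 libraries in one fit, limma-voom on recovered reads with at least 10 on average, a replicate block and leaving out each library. The fit without Saline-SA replicates 3 and 4 was chosen after the data had been seen.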

Additional observations from a re-analysis of the deposited data

Results flagged for a closer look

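In groups of 4 libraries, a value was singled out when its gap to the nearest library was above Dixon's 95% critical share of the range of the group, which chance does in about 1 of 20 groups. Of 54 groups of members, 2 met this. Tlr3 in Heroin-SA replicate 2 was lowest, at 0.432 FPKM (28 reads), against 0.633 for the nearest library. Nfkbia in Saline-SA replicate 4 was highest, at 17.2 FPKM (405 reads), against 14.8 for the nearest. Of 48 groups of the 8 pathway genes named, 3 met it: Tirap in LPS-Saline replicate 3 at 3.70 FPKM, Nfkbid in Saline-SA replicate 1 at 8.36 FPKM and Irf3 in Saline-Heroin replicate 4 at 36.4 FPKM.

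Differences between effects were called for 0 of the members. Of 51 other pathway genes, 3 were called in the interaction and 2 in the difference between the heroin effects, where 2.31% and 4.38% of all genes were called. In the LPS by heroin interaction, the log2 values were -0.83 for Ly86, -0.50 for Ikbkg and 0.59 for Relb (adjusted p = 0.992 each in limma). They were called in 16, 10 and 6 of 16 fits without one library. Between self-administered and injected heroin, Traf3 differed by 0.39 and Irf3 by 0.41 on the log2 scale (adjusted p = 0.691 and 0.670 in limma), called in 11 and 12 of 16 such fits. Traf3, an adaptor of the interferon branch, was at 7.27 ± 0.507 FPKM in Saline-SA, 8.59 ± 0.942 in Heroin-SA, 8.27 ± 0.630 in Saline-Saline and 7.40 ± 0.697 in Saline-Heroin (SD, n = 4 each). Irf3, the factor of that branch, was at 41.4 ± 3.60, 49.4 ± 3.48, 47.6 ± 3.24 and 42.9 ± 4.37 FPKM in the same order, and its span overlaps Bcl2l12 on the opposite strand. Without Saline-SA replicates 3 and 4, a setting chosen after the data had been seen, neither was called, with 0.32 for Traf3 and 0.32 for Irf3.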

How the results depend on the processing

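No member reversed a called direction under any alternative. Nfkbia in LPS-Heroin against LPS-Saline was called under 8 of 9 alternatives, and its log2 difference over the 9 was 0.38 to 0.41. Myd88 in LPS-Heroin against Saline-Heroin was called under 7 of 9, with -0.45 to -0.34 over the 9. The number of members called in each of these comparisons was 1, and it was 0 with a pseudocount of 1, where both fold changes fell under the limit by construction. With the replicate block, 0 members were called in LPS-Heroin against Saline-Heroin, where Myd88 kept -0.44 but its unadjusted p was over the limit, and the block changed no other count of members called. In Saline-Heroin against Saline-Saline, 0 members were called and 1 without a filter (Lcn2) and 1 with limma-voom on the reads (Tlr2). The cause of the second was not tested. Same-numbered libraries of the groups compared had correlations of -0.150 to 0.154. Such values cannot show whether the animals were matched by number.

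Leaving out each library in turn, the number of members called was 0 to 1 in Saline-Heroin against Saline-Saline, LPS-Heroin against Saline-Saline, LPS-Heroin against LPS-Saline, LPS-Heroin against Saline-Heroin, the heroin effect over LPS and the interaction, and 0 in the other 4 comparisons. Nfkbia was then called against Saline-Saline without LPS-Heroin replicate 1 (0.47) or Saline-Saline replicate 1 (0.45), and Myd88 in the interaction without LPS-Heroin, Saline-Heroin or Saline-Saline replicate 2 or LPS-Saline replicate 1. All genes called without the filter numbered 581 in LPS-Saline against Saline-Saline (357), 548 in LPS-Heroin against LPS-Saline (345), 524 against Saline-Heroin (332), 514 for LPS over heroin (265), 627 for heroin over LPS (371) and 565 for the interaction (349). Without LPS-Saline replicate 3, 624 genes were called after LPS alone and 423 for LPS over heroin. Without Saline-Heroin replicate 2, 726 were called in Saline-Heroin against Saline-Saline (465), and without Heroin-SA replicate 3, 1000 in the difference between the heroin effects (664). Without Saline-SA replicates 3 and 4, 543 genes were called in Heroin-SA against Saline-SA (817). Of the calls of other pathway genes, those of Ly86 and Tirap in LPS-Heroin against LPS-Saline were each held under 3 of 9 alternatives and that of Nfkbid under 4, and the others under 6 to 9. Limma-voom on the reads called 302 to 877 genes in the 10 comparisons, against 265 to 821. Depth limits Tlr4, Cd14 and Lcn2, which rest on 1 to 31 reads.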
